A study of Mus musculus with 6 samples.

Results

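The major urinary protein (*Mup*) genes *Mup1*, *Mup2*, *Mup3*, *Mup7*, *Mup10*, *Mup11*, *Mup17*, *Mup20* and *Mup21*, and the lipocalin gene *Obp2a*, are described here across the livers of WT and LKO mice. These 10 genes were picked by symbol from a table of 45777 genes because their levels had stood out between the same 6 mice, so every difference between WT and LKO given for them is a description, and the calls counted for them below support nothing. The 9 *Mup* members are part of 30 entries of the table with a *Mup* symbol, genes and pseudogenes, whose sum was followed as well. Another 2 pseudogenes of the cluster, listed as *LOC102640754* and *LOC108168721*, were not in this sum. All 10 members passed the filter on low counts, which kept 18636 genes with at most 1 zero count among the 6 mice.

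Liver RNA was sequenced from 3 WT and 3 LKO mice, 1 library per mouse. Both groups carried *Pak4* flox/flox on a C57BL/6 background and were male, 8 weeks old and fasted for 24 h; LKO mice also carried Alb-Cre, a Cre recombinase driven by the albumin promoter, which acts in hepatocytes and leaves other liver cells with an intact *Pak4*. The WT mice therefore share the floxed allele and the fast with the LKO mice and differ in the Cre transgene as well as in *Pak4*. WT mice were littermate controls according to the methods, which name a total RNA kit with rRNA removal, whereas the sample labels name an mRNA kit.

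Major urinary proteins are small barrel-shaped carriers of the lipocalin family. Hepatocytes secrete them into blood, the kidney passes them into urine, and there they release volatile pheromones slowly and mark the individual. Their genes form a cluster of near-identical copies on chromosome 4. In the liver they are known to follow the pulsed growth hormone signal of males, through the receptor GHR, the kinase JAK2 and the transcription factor STAT5B, together with androgen, glucocorticoid and thyroid hormone. *Mup20* encodes darcin, a male pheromone in its own right. *Obp2a*, also called Lcn13, encodes another secreted lipocalin of the liver.

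The sequences show how far the copies can be told apart. In the GENCODE annotation of GRCm38, the assembly that mm10 represents, the coding sequences of *Mup1*, *Mup2*, *Mup7*, *Mup10*, *Mup11* and *Mup17* were 91.4% to 99.3% identical to one another in 15 pairs. *Mup20* was 83.7% to 91.3% identical to these 6 genes, *Mup3* 77.8% to 84.6% and *Mup21* 78.1% to 85.0%, while *Mup3* and *Mup21* were 94.7% identical to each other. The reads were 100 bases long at each end of a fragment. Of all stretches of 100 bases of the mRNA, 2.66% were unique to the gene in *Mup2*, 11.7% in *Mup1*, 14.6% in *Mup10*, 16.5% in *Mup11*, 18.4% in *Mup7* and 40.6% in *Mup17*, against 61.2% in *Mup20*, 97.1% in *Mup3*, 95.5% in *Mup21* and 95.2% in *Obp2a*. The shared stretches of *Mup20* occurred in 1 other gene of the annotation, the pseudogene *Mup-ps19*. The single values of the 6 near-identical genes are therefore uncertain, since how shared reads were counted is not given. The 4 remaining members are less affected, and so is the sum if each shared read was counted once. The first stretch printed here is found in 15 other *Mup* genes, and the others each in 1 gene. No letters are in capitals.
*Mup1*, coding bases 367 to 466: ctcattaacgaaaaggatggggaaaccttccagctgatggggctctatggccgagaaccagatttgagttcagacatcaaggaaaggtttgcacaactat
*Mup3*, coding bases 1 to 100: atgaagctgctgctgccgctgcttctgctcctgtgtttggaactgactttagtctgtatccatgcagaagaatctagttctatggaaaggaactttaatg
*Mup20*, coding bases 293 to 392: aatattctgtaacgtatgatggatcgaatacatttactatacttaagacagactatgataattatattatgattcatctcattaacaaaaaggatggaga
*Mup21*, coding bases 1 to 100: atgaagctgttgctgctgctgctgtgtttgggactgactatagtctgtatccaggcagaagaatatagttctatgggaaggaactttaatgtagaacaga
*Obp2a*, coding bases 1 to 100: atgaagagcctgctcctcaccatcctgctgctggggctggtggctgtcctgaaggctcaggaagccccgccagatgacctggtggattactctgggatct

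Upstream sequence of RefSeq (GRCm38.p6) was matched for 8 of the 10 members, *Mup1* and *Mup20* being the others. For each gene the first listed start was used, which can lie inside the gene span given in this report. The *Obp2a* window lies within its span of chr2:25697577-25703326, and the *Mup2* window overlaps its span, which ends at 60139977. The windows, the 250 bases before the start used, were compared over their aligned overlap alone. Among *Mup2*, *Mup7*, *Mup10*, *Mup11* and *Mup17* they were 93.7% to 98.7% identical there, over 115 to 250 bases. Between these and *Mup3* they were 74.4% to 84.1% identical over 170 to 250 bases, the highest value being that of *Mup7*. *Mup3* and *Mup21* were 92.3% identical over 247 bases. The windows shown were chosen because *Mup2* stands for the members that moved together in the count data, *Mup21* for a close relative of *Mup3* that moved apart from it, and *Obp2a* for the gene that was nearly lost. Capitals mark TATATAA, a variant of the TATA box, searched on both strands. The *Obp2a* window does not hold TATATAA but holds the letters tataaa, and other forms of the TATA box were not searched. TATATAA occurred in the windows of 5 of 8 members and in 3.26% of 27025 promoter windows of the same length. The letters TTCNNNGAA, the consensus of STAT5, which do not overlap TATATAA, occurred in 0 of the 8 member windows and in 7.18% of all windows. Absence from these 250 bases says only that the letters are not in this window.
*Mup2* upstream, chr4:60139857-60140106 (minus strand): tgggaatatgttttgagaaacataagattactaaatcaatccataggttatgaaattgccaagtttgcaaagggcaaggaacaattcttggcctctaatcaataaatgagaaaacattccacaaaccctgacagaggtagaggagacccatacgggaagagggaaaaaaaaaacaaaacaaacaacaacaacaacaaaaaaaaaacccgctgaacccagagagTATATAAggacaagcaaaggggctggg
*Mup3* upstream, chr4:62087318-62087567 (minus strand): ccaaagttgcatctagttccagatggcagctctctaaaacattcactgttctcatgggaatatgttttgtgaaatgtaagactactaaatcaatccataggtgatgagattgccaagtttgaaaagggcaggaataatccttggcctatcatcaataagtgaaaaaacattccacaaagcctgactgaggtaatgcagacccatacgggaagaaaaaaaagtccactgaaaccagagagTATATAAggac
*Mup21* upstream, chr4:62150842-62151091 (minus strand): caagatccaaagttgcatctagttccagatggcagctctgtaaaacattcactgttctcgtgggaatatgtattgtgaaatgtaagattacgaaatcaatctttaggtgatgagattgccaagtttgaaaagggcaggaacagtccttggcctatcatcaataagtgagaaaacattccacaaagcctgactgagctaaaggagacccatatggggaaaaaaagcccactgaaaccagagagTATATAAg
*Obp2a* upstream, chr2:25699824-25700073 (plus strand): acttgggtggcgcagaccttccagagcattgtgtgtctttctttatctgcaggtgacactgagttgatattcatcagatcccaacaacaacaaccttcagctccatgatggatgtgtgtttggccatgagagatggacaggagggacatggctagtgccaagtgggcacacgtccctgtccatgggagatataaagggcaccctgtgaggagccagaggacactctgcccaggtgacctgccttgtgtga

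The libraries held 45934632 to 59576437 counts in total, and the scale on which they are set side by side changes the direction of several values below. TMM, the scaling of edgeR, gave factors of 1.28 to 1.43 in WT against 0.639 to 0.816 in LKO mice. The median log2 fold change of all tested genes was −0.039 after TMM, −0.90 with total counts and −0.79 on the log2(TPM + 1) scale. Values in normalised counts (CPM, counts relative to the library size after TMM) are therefore given beside TPM, which the authors scaled per length to the same sum in each mouse and which allow levels to be compared between genes. With edgeR's quasi-likelihood test and an adjusted p under 0.05, 40.1% of the tested genes were called, 19.6% higher and 20.5% lower in LKO mice, whereas total counts called 6.27% higher and 51.4% lower. *Pak4* was at 3.59, 3.21 and 4.1 CPM in WT against 1.93, 1.49 and 3.22 CPM in LKO mice, so that LKO mouse 3 lay within the WT range (log2 fold change −0.71 ± 0.31, SE; adjusted p = 0.101, and 0.0152 without LKO mouse 3). With total counts and by TPM every LKO mouse was below every WT mouse for *Pak4*, at 0.265 to 0.845 TPM against 2.31 to 2.59 TPM, with log2 fold changes of −1.54 (adjusted p = 0.00561, edgeR) and −1.19 (adjusted p = 6.3e-04, limma). Every LKO mouse was also below every WT mouse in 57.9% of all tested genes with total counts and in 74.9% by TPM. Relative to the median of all tested genes, *Pak4* stood at −0.64 with total counts and at −0.40 on the log2(TPM + 1) scale. *Pak4* reads outside the floxed part and from cells that do not make albumin count toward these values.

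*Obp2a* (Entrez gene 227627, chr2:25697577-25703326) was the member that differed most. The reads assigned to it numbered 3889, 5941 and 3740 in WT mice against 0, 5 and 6 in LKO mice. The WT mice thus stood orders of magnitude above the LKO mice, with no overlap. In normalised counts this was 66.5 ± 21.2 CPM in WT against 0.091 ± 0.079 CPM in LKO mice (mean ± SD, n = 3 each), 730.4 times higher in WT, and the count of 0 in LKO mouse 1 allows up to 0.0681 CPM. Its log2 difference was −9.52 ± 0.54 (SE) after TMM, the lowest of all 18636 tested genes, and −10.39 with total counts and −7.39 on the log2(TPM + 1) scale. Without LKO mouse 1 it was −8.91. Its rank as the lowest does not cover genes with 0 counts in more than 1 mouse, which the filter left out. In TPM, *Obp2a* ranked 641, 341 and 583 among the 18636 tested genes in the 3 WT mice and at 15726 or lower in the LKO mice. *Obp2b*, which shares stretches of sequence with *Obp2a*, had 0 counts in every mouse, so that the WT signal was assigned to *Obp2a* alone. In a bulk liver library, fewer cells that express a gene and less of its RNA per cell cannot be told apart.

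*Mup20* (Entrez gene 381530), the most abundant member in WT mice, and its neighbour *Mup21* (381531) formed a second pattern. *Mup20* lies at chr4:62011337-62054143 in RefSeq, a span that also contains the pseudogene *Mup-ps21*, and *Mup21* at chr4:62147832-62150841. *Mup20* was at 19540, 28510 and 24180 TPM in WT mice against 4071, 13650 and 12470 TPM in LKO mice. Every LKO mouse lay below every WT mouse, and LKO mouse 1 was the lowest. In normalised counts the groups overlapped, at 8855, 12040 and 11590 CPM in WT against 4933, 22120 and 14520 CPM in LKO mice. The log2 difference of *Mup20* was 0.36 ± 0.50 (SE) after TMM, −0.58 with total counts and −1.43 on the log2(TPM + 1) scale, and after TMM it was −0.16 without LKO mouse 2. Its direction thus depended on the scale.

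*Mup21* was at 606, 1047 and 1194 TPM in WT mice against 312, 348 and 453 TPM in LKO mice, again with no overlap. In normalised counts it was at 366 ± 127 CPM in WT against 417 ± 83.7 CPM in LKO mice, and the groups overlapped. The log2 difference of *Mup21* was 0.19 ± 0.28 (SE) after TMM, −0.69 with total counts and −1.31 on the log2(TPM + 1) scale. Relative to the median of all tested genes, *Mup21* stood at 0.23 after TMM and at −0.52 on the log2(TPM + 1) scale.

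*Mup3* (Entrez gene 17842, chr4:62083476-62087317) lies between *Mup20* and *Mup21* and moved with the other copies rather than with its neighbours. It was at 9075, 11550 and 14640 TPM in WT mice against 12780, 12830 and 13740 TPM in LKO mice, so that the LKO mice lay within the WT range. In normalised counts every LKO mouse was above every WT mouse, at 16210, 21770 and 16740 CPM against 4310, 5107 and 7357 CPM. The log2 difference of *Mup3* was 1.71 ± 0.33 (SE) after TMM, 0.83 with total counts and 0.18 on the log2(TPM + 1) scale.

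**Figure D1:**
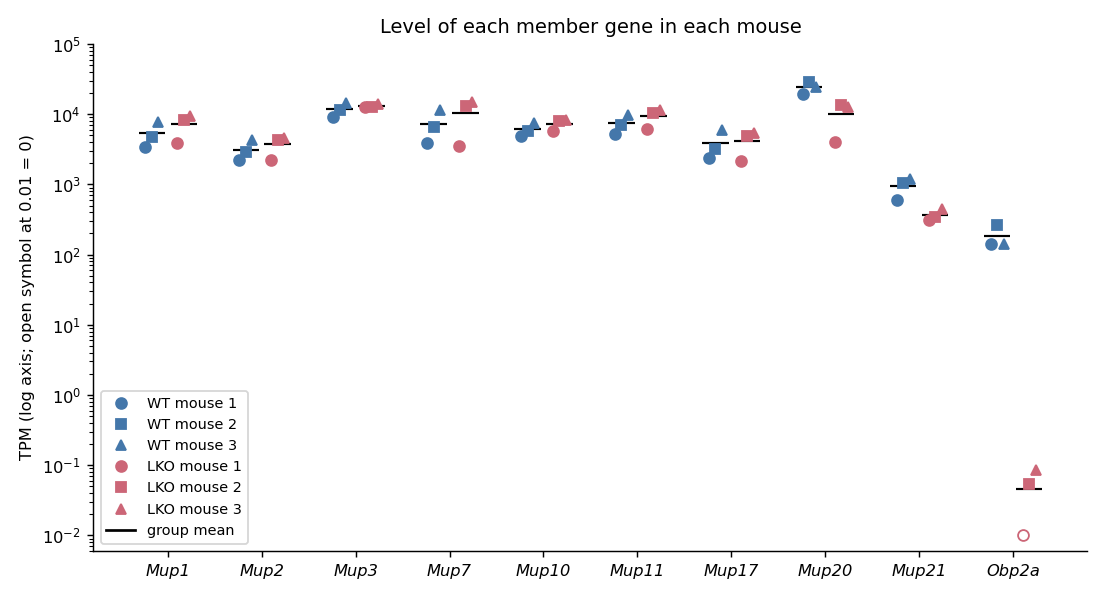
Level of each member gene in TPM (log axis) in the 3 WT mice (blue) and 3 LKO mice (red), with 1 symbol shape per mouse number and a black line at the group mean; the open symbol drawn at 0.01 stands for 0. The groups are apart for *Mup20*, *Mup21* and *Obp2a*, with LKO below WT, and overlap for the other 7 genes.

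The 6 near-identical members shared 1 pattern. *Mup11* (chr4:60658466-60662432) was the most abundant of them in WT mice by TPM, although shared reads make this order uncertain. It was at 5188, 7081 and 9880 TPM in WT against 6052, 10310 and 11610 TPM in LKO mice. *Mup7* (chr4:60066469-60070475) was at 3879, 6525 and 11560 TPM in WT against 3574, 12930 and 14790 TPM in LKO mice. In both genes the groups overlapped and mouse 1 was the lowest of its group. *Mup1* (chr4:60498012-60501960) ran from 3435 to 7780 TPM in WT and from 3870 to 9293 TPM in LKO mice, *Mup10* (chr4:60578260-60582276) from 4953 to 7601 TPM and from 5704 to 8326 TPM. *Mup2* (chr4:60135913-60139977) ran from 2191 to 4328 TPM in WT and from 2218 to 4625 TPM in LKO mice, and *Mup17* (chr4:61591929-61595865) from 2350 to 5985 TPM and from 2121 to 5332 TPM. By TPM the means of all 6 were higher in LKO mice, by 1.07 times in *Mup17* to 1.42 times in *Mup7*, which is less than the spread between mice. After TMM their log2 differences were 1.66 ± 0.50 (SE) in *Mup17*, 1.81 ± 0.42 in *Mup2*, 1.83 ± 0.34 in *Mup10*, 1.90 ± 0.41 in *Mup11*, 1.99 ± 0.48 in *Mup1* and 2.08 ± 0.64 in *Mup7*. With total counts the same 6 genes stood at 0.77 to 1.18. In normalised counts, *Mup1*, *Mup2*, *Mup10* and *Mup11* had every LKO mouse above every WT mouse, while *Mup7* and *Mup17* overlapped.

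Over the 10 members, the test after TMM called 7 higher, 1 lower (*Obp2a*) and 2 not (*Mup20* and *Mup21*), where 40.1% of all genes were called. With total counts 5 members were called higher and 2 lower, where 57.6% of all genes were called, 6.27% higher and 51.4% lower. On the log2(TPM + 1) scale limma called 0 higher and 3 lower, where 73.9% of all genes were called, 2.43% higher and 71.5% lower. Every LKO mouse was above every WT mouse in 5 of the 9 *Mup* members by normalised counts, against 26.1% of all tested genes, in 2 with total counts (8.37%) and in 0 by TPM (2.98%). Every LKO mouse was below every WT mouse in *Obp2a* alone by normalised counts, against 27.9% of all tested genes, and with total counts (57.9%). By TPM this held for *Mup20*, *Mup21* and *Obp2a*, against 74.9%. Nothing is read from these counts, because the members were picked from this contrast. The median log2 difference of the 10 members was 1.76 after TMM, 0.87 with total counts and 0.21 on the log2(TPM + 1) scale.

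If each shared read was counted once, the sum over all 30 *Mup* genes and pseudogenes depends less on how such reads were split than single copies do. TPM also divides by lengths that differ between copies. It held 3176475, 3577133 and 5204252 counts in WT mice against 4241715, 8443856 and 8578220 counts in LKO mice. This was 5.75%, 7.79% and 10.1% of all counts in WT against 7.86%, 15.5% and 14.4% in LKO mice, so that LKO mouse 1 lay within the WT range and LKO mice 2 and 3 above it. After TMM the sum was 58620 ± 18350 CPM in WT against 174600 ± 73450 CPM in LKO mice (mean ± SD, n = 3 each), 2.98 times higher in LKO mice with no overlap. With total counts it was 1.6 times higher, with overlap. By TPM it was 126600 ± 33990 in WT against 125800 ± 42200 in LKO mice, a ratio of 0.994. The *Mup* sum was thus higher in LKO mice relative to the typical gene and about the same as a share of the length-adjusted signal, where the difference was far smaller than the spread between mice. Without *Mup20* and *Mup-ps19*, the remaining 28 genes and pseudogenes summed to 3.67 times the WT level after TMM, with no overlap, and to 1.24 times by TPM, with overlap. *Mup20* and *Mup-ps19* together were at 37920 ± 7050 TPM in WT against 15830 ± 8113 TPM in LKO mice, with no overlap.

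**Figure D2:**
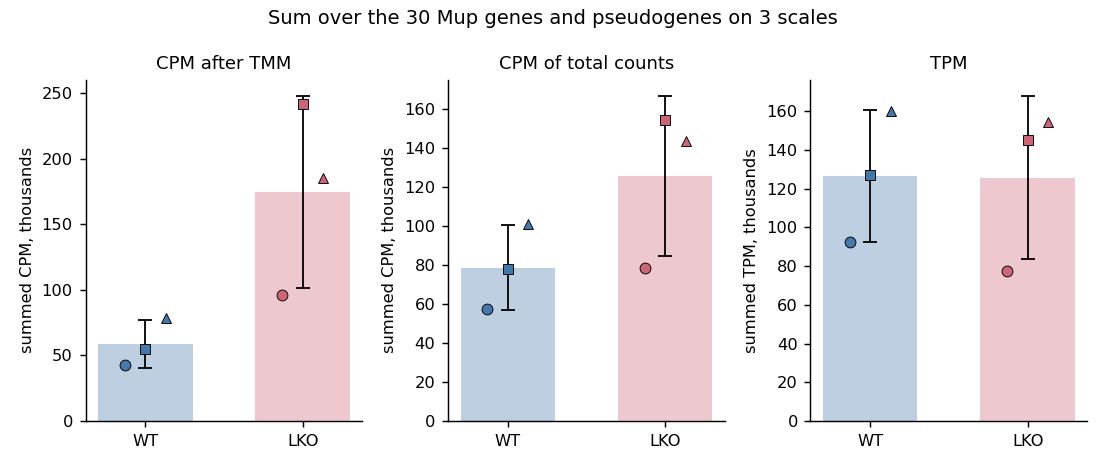
Sum over the 30 *Mup* genes and pseudogenes of the table in each mouse (symbols), with the group mean (bar, from 0) and SD (error bar), as CPM after TMM, CPM of total counts and TPM, each divided by 1000. The ratio of LKO over WT is 2.98, 1.6 and 0.994 on the 3 scales, and the groups are apart on the first scale alone.

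Genes that define hepatocytes are given beside the *Mup* sum. The 10 hepatocyte markers, *Alb* among them, summed to 52050 to 55630 CPM in WT against 112300 to 135300 CPM in LKO mice after TMM, and to 45330 to 49260 TPM in WT against 31370 to 44150 TPM in LKO mice. The sum rests in large part on *Alb*, and single markers differed: 4 were called higher after TMM, *Alb* among them (1.72 ± 0.38, SE; adjusted p = 0.00788), and 2 lower, *Ttr* (−1.35 ± 0.27; adjusted p = 0.00499) and *Trf* (−1.12 ± 0.26; adjusted p = 0.0101). Of all tested genes 19.6% were called higher and 20.5% lower after TMM, and 6.27% and 51.4% with total counts. With total counts 3 hepatocyte markers were called higher and 4 lower. By TPM the marker sum of every LKO mouse was below that of every WT mouse, and their part in the *Mup* result was not tested. Ratios taken within a library are free of the scaling. By TPM, the *Mup* sum was 1.87, 2.62 and 3.53 times the sum of the 10 markers in WT mice against 1.75, 4.63 and 3.88 times in LKO mice, with overlap. It was 4.08, 6.36 and 9.03 times *Alb* in WT against 2.60, 9.02 and 6.57 times *Alb* in LKO mice, again with overlap. *Mup20* alone was 1.22 ± 0.307 times *Alb* in WT against 0.505 ± 0.356 times in LKO mice, with every LKO mouse below every WT mouse. Markers of other liver cells were present at lower levels: 4 of 7 Kupffer cell markers, 4 of 7 sinusoidal endothelial markers, 3 of 7 stellate cell markers and 1 of 6 lymphocyte and leukocyte markers were called higher after TMM, and 0, 0, 1 and 1 lower. With total counts 2, 2, 2 and 1 were called higher and 2, 3, 3 and 2 lower in the same order, so these calls depended on the scale. Summed by TPM, the Kupffer cell markers ran from 207 to 340 in WT and from 149 to 223 in LKO mice, the endothelial ones from 152.3 to 211 and from 98.8 to 152.4, the stellate ones from 161 to 214 and from 184 to 243, and the lymphocyte and leukocyte ones from 23 to 41.2 and from 13.4 to 24.1. Of 5 cholangiocyte markers 3 were tested and 1 was called lower (*Spp1*); they ran from 40.3 to 66.7 TPM in WT and from 6.78 to 10.5 TPM in LKO mice, and *Cldn4* had 0 counts in WT mouse 2 and in every LKO mouse. Defining markers of the other cell types with 0 counts in a mouse were *Krt7* in WT mice 2 and 3, *Cd3e* in LKO mouse 1 and *Nkg7* in LKO mouse 2. The part of these cells in the results was not tested.

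The make-up of the *Mup* signal differed between the groups within each library. *Mup20* made up 21.2%, 22.4% and 15.1% of the summed *Mup* TPM in WT mice against 5.26%, 9.40% and 8.06% in LKO mice. The groups did not overlap. The pseudogene *Mup-ps19*, which shares stretches with *Mup20*, went from 11.2% ± 2.07 to 4.37% ± 1.10 (SD, n = 3), and *Mup21* from 0.742% ± 0.0832 to 0.312% ± 0.0839. *Mup11* went from 5.78% ± 0.332 to 7.48% ± 0.365 and *Mup1* from 4.12% ± 0.641 to 5.58% ± 0.519, while *Mup3* was at 9.35% ± 0.421 and 11.4% ± 4.43. The ratio of *Mup20* to *Mup3* was 2.15, 2.47 and 1.65 in WT mice against 0.319, 1.06 and 0.908 in LKO mice. *Mup3* was thus below *Mup20* in every WT mouse and above it in LKO mice 1 and 3. The ratio of *Mup21* to *Mup3*, 2 genes with largely distinct reads, was 0.0796 ± 0.0121 in WT against 0.0282 ± 0.00434 in LKO mice, with no overlap, whereas that of *Mup7* to *Mup3* overlapped, at 0.594 ± 0.183 and 0.788 ± 0.442. These ratios set members against members from the same contrast and carry no test.

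**Figure D3:**
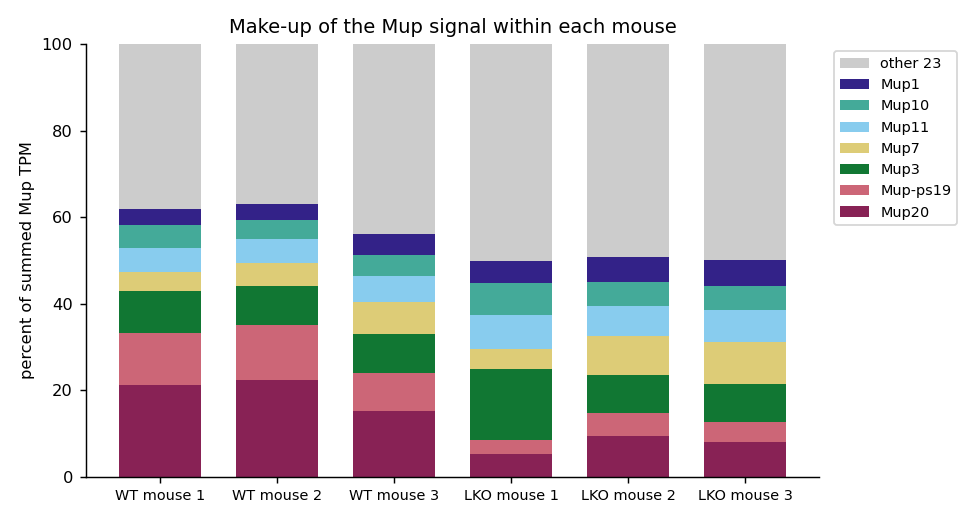
Share of the summed *Mup* TPM (percent) taken by *Mup20*, *Mup-ps19*, *Mup3*, *Mup7*, *Mup11*, *Mup10* and *Mup1* and by the remaining 23 *Mup* genes and pseudogenes in each mouse. *Mup20* takes 15.1% to 22.4% in WT against 5.26% to 9.40% in LKO mice.

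Mice differed from one another across the family. LKO mouse 1 was the lowest LKO mouse in all 30 *Mup* genes and pseudogenes after TMM, by TPM and in raw counts. WT mouse 1 was the lowest WT mouse in 9 of the 9 members after TMM and by TPM, and WT mouse 3 the highest in 8. The spread within a group was thus shared by the copies, some of which share reads. *Mup3* and *Mup21* varied less among LKO mice than *Mup20* did, with 12780 to 13740 TPM in *Mup3* against 4071 to 13650 TPM in *Mup20*.

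Many of the 21 *Mup* genes and pseudogenes outside the members share reads with them, so their values are no independent evidence. Of these, 17 were called higher and 0 lower after TMM (quasi-likelihood test of edgeR), where 19.6% and 20.5% of all tested genes were called. Their median log2 fold change was 1.89 beside −0.039 for all tested genes. With total counts 10 were called higher and 0 lower, where 6.27% and 51.4% of all tested genes were called. On the log2(TPM + 1) scale limma called 1 higher and 3 lower, where 2.43% and 71.5% of all tested genes were called. *Mup8*, *Mup9*, *Mup12*, *Mup13*, *Mup14*, *Mup15*, *Mup16*, *Mup18*, *Mup19* and *Mup22* ran from 1.64 to 2.09 after TMM. All 10 belong to the near-identical copies. *Mup-ps19* and *Mup-ps21* stood at 0.35 and 0.36, next to the 0.36 of *Mup20*, whose span follows *Mup-ps19* on the chromosome and contains *Mup-ps21*. Among the entries with a pseudogene symbol, of which *Mup-ps12* and *Mup-ps16* are annotated as protein coding, *Mup-ps9*, *Mup-ps15*, *Mup-ps16* and *Mup-ps18* ran from 1.15 to 2.09 and were called, whereas *Mup-ps12* at 1.08 and *Mup-ps2* at 0.74 were not. *Mup6*, whose mRNA shares no stretch of 100 bases with another gene, stood at 0.89 after TMM and at −0.63 on the log2(TPM + 1) scale.

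*Mup5* and *Mup4* had distinct sequences and low levels. *Mup5* was at 198, 1865 and 493 counts in WT against 3665, 6123 and 6905 counts in LKO mice, and every LKO mouse was above every WT mouse on all 3 scales. Its log2 fold change was 3.40 ± 0.77 (SE) after TMM (adjusted p = 0.00877), 2.46 with total counts and 2.66 on the log2(TPM + 1) scale. *Mup4* was at 212, 12 and 7 counts in WT against 7, 1227 and 2181 counts in LKO mice. LKO mouse 1 was thus as low as WT mice 2 and 3, and the call after TMM (log2 fold change 4.69 ± 1.62, adjusted p = 0.0481) was lost when single mice were left out, with an adjusted p of up to 0.140, and with total counts (0.0638), length offsets (0.0665), the replicate block (0.19) and limma on log2(TPM + 1) (0.197).

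**Figure D4:**
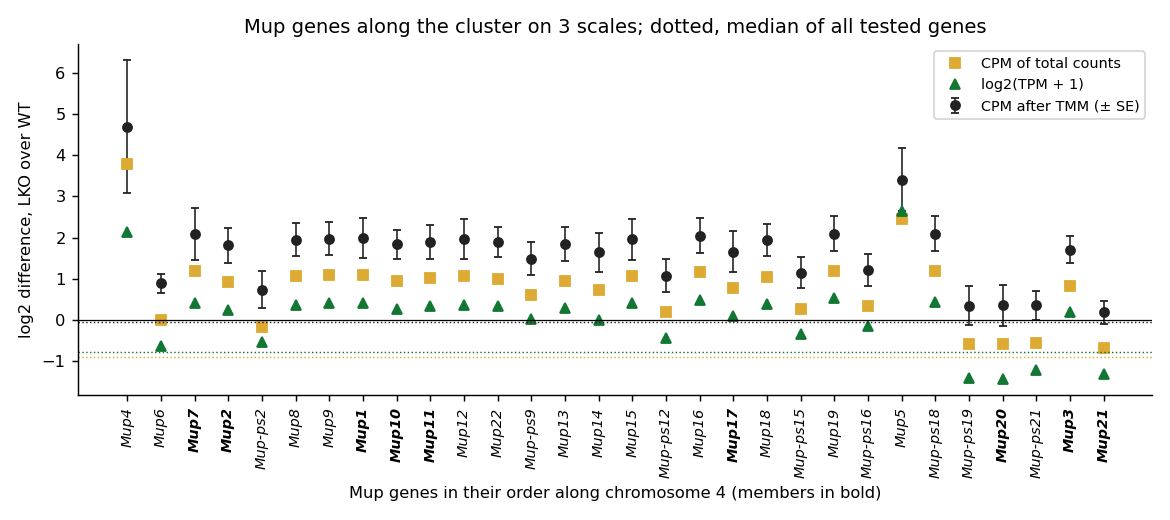
Difference of LKO over WT (log2) for the 30 *Mup* genes and pseudogenes in their order along chromosome 4, as CPM after TMM (black, with SE), CPM of total counts (yellow) and log2(TPM + 1) (green); members are in bold and dotted lines give the median of all tested genes on each scale. *Mup-ps19*, *Mup20*, *Mup-ps21* and *Mup21* lie at 0.19 to 0.36 after TMM, below the 1.71 of *Mup3* among them.

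Genes next to the members were looked at after the data had been seen. Of the 5 tested genes on either side of *Obp2a* on chromosome 2, 1 was called higher, 4 lower and 5 not, where 40.1% of all tested genes were called, with log2 fold changes from −3.32 to 2.05. The nearest on the far side, *Bmyc*, fell (−3.32 ± 0.74, SE; adjusted p = 0.00844). Around the *Mup* cluster, which spans chr4:59956804-62150841, 2 of the 10 nearest tested genes were called higher and 5 lower, from −1.83 to 1.41. The lowest of the 20 neighbours was *Bmyc*.

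The growth hormone pathway is one to which hepatic *Mup* genes respond. Of its 15 genes 0 were called higher, 6 lower and 9 not after TMM, where 19.6% of all tested genes were called higher and 20.5% lower, with a median log2 fold change of −1.0 beside −0.039 for all tested genes. The receptor gene *Ghr* was at 449, 432 and 559 CPM in WT against 284, 204 and 111 CPM in LKO mice, with no overlap, and fell by 1.26 ± 0.32 on the log2 scale (SE; adjusted p = 0.0139). *Stat5a* fell by 1.34 ± 0.30 (adjusted p = 0.00828), while *Stat5b*, the main STAT5 of the liver, was at −0.41 ± 0.22 (adjusted p = 0.181, and 0.0194 without LKO mouse 3) and was called lower with total counts (−1.24, adjusted p = 0.00431). *Jak2*, the kinase of the receptor, was at 0.15 ± 0.14 after TMM (adjusted p = 0.416) but at −0.72 with total counts and −1.21 on the log2(TPM + 1) scale. With total counts 51.4% of all tested genes were called lower. The median of all tested genes was −0.90 with total counts and −0.79 on the log2(TPM + 1) scale.

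Targets and brakes of the same pathway gave differing values. *Igfals*, which encodes the partner that holds IGF1 in plasma and was chosen after its values were seen, fell by 3.34 ± 0.39 on the log2 scale (SE; adjusted p = 5.5e-04). *Cish*, a feedback inhibitor induced by STAT5, fell by 1.87 ± 0.52 on the log2 scale (SE; adjusted p = 0.0219), a call that was lost without WT mouse 2, LKO mouse 1 or LKO mouse 2 (adjusted p of 0.0657, 0.0632 and 0.0844). *Socs2*, another such inhibitor, was at 31.7, 51.2 and 8.23 CPM in WT against 13.1, 23.5 and 58.7 CPM in LKO mice, and the groups overlapped fully (log2 fold change 0.065 ± 0.67, adjusted p = 0.946, but −0.82 with total counts and −1.25 on the log2(TPM + 1) scale). *Igf1*, the circulating mediator of growth hormone, was at −0.47 ± 0.21 after TMM (adjusted p = 0.107) and was called lower with total counts (−1.35, adjusted p = 7.6e-04) and on the log2(TPM + 1) scale (−1.99, adjusted p = 1.3e-04). On these 2 scales 51.4% and 71.5% of all tested genes were called lower, with medians of −0.90 and −0.79. The repressor genes *Bcl6* and *Cux2* were at −1.0 ± 0.38 (adjusted p = 0.0642) and 2.70 ± 0.99 (adjusted p = 0.0601), while *Bcl6* was called lower with total counts (−1.88, adjusted p = 0.00432) and *Cux2* higher by exactTest (adjusted p = 0.0199) and DESeq2 (adjusted p = 0.00412). The value of *Cux2* came from LKO mouse 3, at 4.09 CPM against 0.431 and 0.201 CPM in the other LKO mice. The summed TPM of the 15 genes ran from 523 to 631 in WT and from 85.7 to 116 in LKO mice. This sum rests in large part on *Ghr*, at a mean of 251 TPM in WT and 35.6 TPM in LKO mice. By TPM every LKO mouse was below every WT mouse in 74.9% of all tested genes.

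Transcription factors that act on *Mup* genes gave 3 rises and 6 falls among 16 tested genes after TMM, where 40.1% of all tested genes were called, with a median of −0.35. *Zhx2*, a repressor of several fetal liver genes and a regulator of *Mup* genes, was at −0.80 ± 0.28 (adjusted p = 0.0484), a call that was lost when any mouse but LKO mouse 3 was left out (adjusted p of up to 0.146) and with 2 other scalings, DESeq2 size factors (0.0508) and upper-quartile factors (0.0668). *Cebpa* was called higher after TMM (0.60 ± 0.20, adjusted p = 0.0445) but was at −0.23 with total counts and −0.92 on the log2(TPM + 1) scale, and its call was lost without WT mouse 1, WT mouse 2 or LKO mouse 1, with the replicate block (adjusted p = 0.0722) and with no filter (adjusted p = 0.0598). *Hnf4a* and *Nr3c1*, the glucocorticoid receptor gene, were at −0.30 ± 0.28 and −0.11 ± 0.16, with adjusted p of 0.418 and 0.621, and *Nr3c1* turned to 0.049 with offsets for gene length. Both were called lower with total counts, at −1.16 and −0.98 (adjusted p of 0.00727 and 0.00106), and on the log2(TPM + 1) scale, at −1.88 and −1.60. On these 2 scales 51.4% and 71.5% of all tested genes were called lower, with medians of −0.90 and −0.79.

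Other genes with a sex bias in mouse liver give the background for a male-biased family. Of 17 male-biased genes 16 were tested. After TMM 1 was called higher and 8 lower, where 19.6% and 20.5% of all tested genes were called, with a median log2 fold change of −0.99. The filter on zero counts left out *Moxd1*, at 40, 148 and 565 counts in WT against 0, 0 and 4 in LKO mice. *Hsd3b5*, a steroid dehydrogenase gene of male liver, fell from 54.4, 85.0 and 99.8 CPM to 3.02, 2.06 and 2.2 CPM (−5.03 ± 0.29, SE; adjusted p = 1.07e-04). *Elovl3*, a fatty acid elongase gene, fell by 3.34 ± 0.70 (adjusted p = 0.00634) and *Selenbp2* by 3.22 ± 0.40 (adjusted p = 6.8e-04). *Slco1a1*, an organic anion transporter gene, was the 1 called higher after TMM (0.93 ± 0.26, adjusted p = 0.021) but was at 0.055 with total counts and −0.58 on the log2(TPM + 1) scale.

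Of 28 female-biased genes 23 were tested. After TMM 11 were called higher and 4 lower (19.6% and 20.5% of all tested genes), with a median of 0.92. Without WT mouse 2 or without WT mouse 3, 6 were called higher, where 15% of all tested genes were called higher in each case. The filter on zero counts left out *Cyp2b9*, at 2363, 627 and 280 counts in WT against 0, 0 and 3 in LKO mice. It also left out *Cyp2b13* (142, 57 and 29 against 14, 0 and 0) and *Hao2* (73, 38 and 12 against 0 in each). *Sult3a1*, left out as well, was at 0 in each WT mouse against 38, 47 and 25 counts in LKO mice, and *Sult2a2* had counts in LKO mouse 3 alone. *Nipal1* and *Cyp4a14*, a fatty acid hydroxylase gene that PPARα also induces, rose by 4.54 ± 0.64 and 4.3 ± 0.56 (SE; adjusted p of 0.00112 and 7.6e-04). *Slc22a27* fell by 3.03 ± 0.73 (adjusted p = 0.0117, and 0.051 without LKO mouse 2) and *Srd5a1*, a steroid reductase gene, by 0.86 ± 0.20 (adjusted p = 0.00972). With total counts 0 male-biased genes were called higher and 15 lower, and 4 female-biased genes higher and 7 lower. On that scale 6.27% of all tested genes were called higher and 51.4% lower.

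Among 25 other lipocalins, 22 were in the table and 8 were tested. After TMM 5 were called higher and 1 lower, where 19.6% and 20.5% of all tested genes were called. With total counts 2 were called higher and 2 lower, where 6.27% and 51.4% of all tested genes were called. On the log2(TPM + 1) scale limma called 0 higher and 4 lower, where 2.43% and 71.5% of all tested genes were called. *Orm1*, *Orm2* and *Orm3* encode orosomucoids, acute phase carriers of plasma. *Orm1* was at 285, 293 and 319 CPM in WT against 722, 1750 and 874 CPM in LKO mice, with no overlap (log2 fold change 1.90 ± 0.33, SE; adjusted p = 0.00275). *Orm3* and *Orm2* were called higher as well, by 2.71 ± 0.42 and 1.51 ± 0.32 (adjusted p of 0.0017 and 0.00679), although on the log2(TPM + 1) scale *Orm2* was at −0.14. *Ambp*, the precursor of alpha-1-microglobulin and bikunin, was at 1010, 851 and 1010 CPM in WT against 512, 528 and 525 CPM in LKO mice and fell by 0.88 ± 0.17 (adjusted p = 0.00475). The filter on zero counts left out *Ptgds*, the prostaglandin D synthase of the family, which was at 105, 145 and 29 counts in WT mice against 0 in each LKO mouse and was named after its values were seen.

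**Figure D5:**
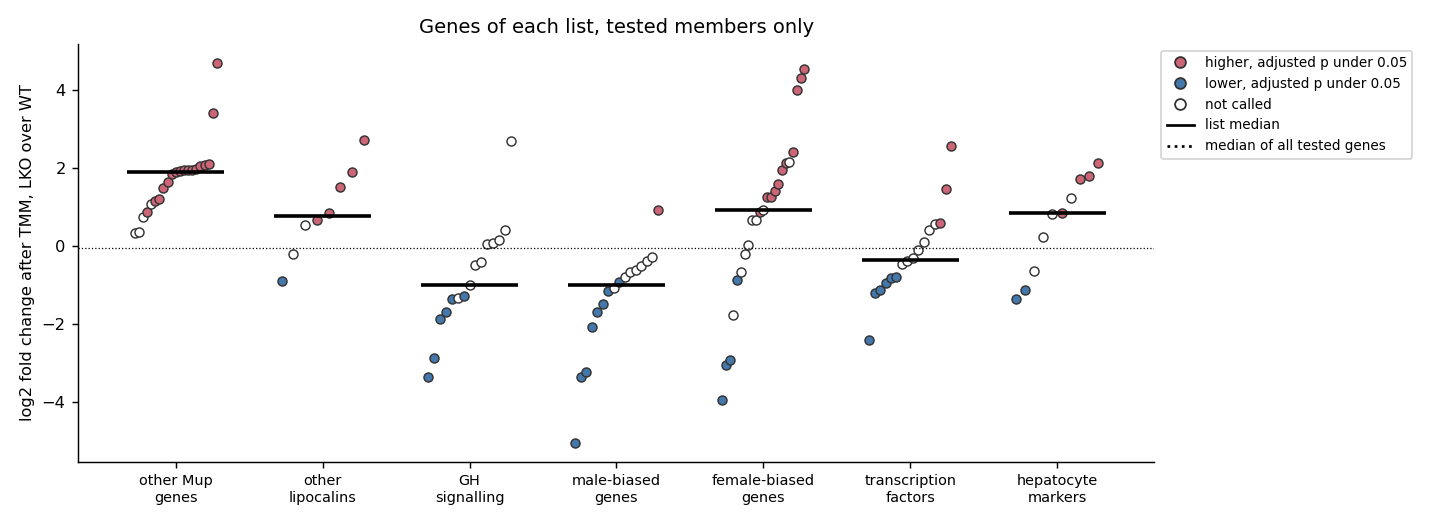
Log2 fold change after TMM (LKO over WT) of each tested gene of 7 lists, coloured by the call at an adjusted p under 0.05 (red higher, blue lower, white not called); black lines are list medians and the dotted line is the median of all tested genes, −0.039. The other *Mup* genes have a median of 1.89, and the growth hormone and male-biased lists have medians of −1.0 and −0.99.

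The genes whose course over the 6 mice was most like that of the *Mup* sum and of *Obp2a* were named by the smallest root mean square difference in log2 CPM relative to the WT mean, over 12967 genes with at least 1 CPM on average. For the *Mup* sum these were *Ndrg1*, *Casp4*, *ND4L*, *LOC102640754* and *Efemp1*, at 0.197 to 0.238. *LOC102640754* is listed in RefSeq as *Mup-ps11*, itself a pseudogene of the cluster. *Ndrg1* was at 3.35, 3.65 and 4.26 CPM in WT against 7.81, 15.8 and 12.8 CPM in LKO mice, low in LKO mouse 1 as the *Mup* genes were. For *Obp2a* the 4 nearest were *Car3*, *Adgrv1*, *Ighg2c* and *Serpina4-ps1*, at 1.70 to 2.15, a distance that leaves them far from its course. *Car3*, a carbonic anhydrase gene, was at 2550, 1770 and 3190 CPM in WT against 48.9, 10.1 and 2.98 CPM in LKO mice.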

How the data were processed

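Liver RNA of 3 WT and 3 LKO mice (n = 3 each, 1 library per mouse) was sequenced by the authors in paired reads of 100 bases. The submitters' processing notes name bcl2fastq 2.20.0, FastQC 0.11.7, HISAT2 2.1.0, Bowtie2 2.3.4.1, StringTie 2.1.3b and mm10; the use of strand and of multi-mapped reads is not given in the sources used here. The authors deposited 1 table of 45777 genes with read counts from StringTie, not normalized, and with FPKM and TPM per mouse. The deposited FPKM entered only the relative gene length and a check of levels; the deposited TPM are scaled to the same sum in each mouse. Entrez numbers of 45679 genes matched RefSeq (GRCm38.p6). Total counts were 45934632 to 59576437, and precision is given as SD over mice or SE of the model.

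Following the study, genes were kept if at most 1 of 6 mice had a count of 0. Scaling was by TMM, and edgeR 4.0.16 (R 4.3.3) gave the quasi-likelihood test, two-sided, with genotype as the factor, Benjamini-Hochberg adjustment over 18636 genes and a threshold of 0.05 (common biological coefficient of variation 0.254). The step of the study that adds 1 to counts and takes logarithms before TMM was not repeated. A single value compared by exact permutation cannot reach a p under 0.1 with 3 against 3 mice, so none was run. Alternatives were total counts, DESeq2 1.42.0 and its size factors, upper-quartile factors, exactTest, 2 other filters, limma 3.58.1 on log2(TPM + 1), the replicate number as a block, offsets for gene length and leaving out each mouse. Procedures were tested on simulated data in which rises and falls were balanced. Such data do not decide between the scalings. Nothing says that same-numbered mice were related, and p-values measure the spread between these mice.

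The members and all lists were chosen with earlier results of these data known. Named were all members, *Pak4*, every other *Mup* gene whose mean reached 1 CPM, 9 growth hormone genes, 6 transcription factors, up to 3 called rises and 3 falls above the same mean in the lists of lipocalins and sex-biased genes, and the 5 genes nearest to the *Mup* sum and to *Obp2a*. Some genes that this rule names are not reported here. *Alb*, *Ttr*, *Trf*, *Igfals*, *Ptgds*, *LOC108168721*, *Spp1*, *Cldn4*, *Krt7*, *Cd3e*, *Nkg7*, *Obp2b* and *Bmyc* were named after their values were seen. So were *Moxd1*, *Cyp2b9*, *Cyp2b13*, *Hao2*, *Sult3a1* and *Sult2a2*. Sequences came from RefSeq and GENCODE M21; identities are from pairwise alignments without end gaps.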

Additional observations from a re-analysis of the deposited data

How the results depend on the processing

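The scaling decided most of what changed. With total counts, 1169 genes were called higher and 9573 lower, and with limma on log2(TPM + 1) 13775 were called, 453 higher and 13322 lower, against 7476 (3661 higher, 3815 lower) after TMM. The log2 ratio of the summed *Mup* genes was 1.57 after TMM, 0.67 with total counts, −0.038 on the log2(TPM + 1) scale and −0.0094 as a sum of TPM. Of the members, 7 were called higher and 1 lower after TMM; with total counts 2 were called lower, and on the log2(TPM + 1) scale 0 higher and 3 lower. With total counts, the genes called higher and lower were 10 and 0 of the other *Mup* genes, 2 and 2 lipocalins, 0 and 11 growth hormone genes, 0 and 15 male-biased genes, 4 and 7 female-biased genes, and 0 and 10 transcription factors. On the log2(TPM + 1) scale they were 1 and 3, 0 and 4, 0 and 11, 0 and 16, 3 and 8, and 0 and 13 in the same order. Offsets for gene length gave 11 other *Mup* genes higher, 2 lipocalins lower and 1 growth hormone gene higher; exactTest, DESeq2 and a minimum of 10 counts in 3 samples each gave 1 growth hormone gene higher. Directions turned for *Jak2* (−0.72 with total counts, −1.21 by TPM), *Socs2* (−0.82 and −1.25), *Cebpa* (−0.23 and −0.92), *Orm2* (−0.14 by TPM), *Slco1a1* (−0.58 by TPM) and *Nr3c1* (0.049 with length offsets). The cause was not tested. Replicate numbers did not pair the mice: deviations of same-numbered mice correlated at 0.0507, −0.0252 and −0.0764. With the replicate block 6431 genes were called and *Socs2* was at −0.035; with the block and length offsets 3 lipocalins were higher, 2 lower and *Nr3c1* was at 0.032. Leaving out each mouse gave 5663 to 7309 genes called (2795 to 3517 higher, 2856 to 3792 lower), a *Mup* sum of 1.26 to 1.87, 5 to 7 members higher and 1 lower. It gave 11 to 18 other *Mup* genes higher (11 without WT mouse 2 or LKO mouse 2) and 0 lower, 4 to 5 and 1 lipocalins, 0 to 1 (1 without LKO mouse 1 or 2) and 5 to 7 growth hormone genes, 0 to 1 (0 without WT mouse 1, WT mouse 2 or LKO mouse 2) and 7 to 9 male-biased, 6 to 12 and 3 to 5 female-biased genes, and 0 to 2 (0 without WT mouse 1) and 3 to 5 (3 without WT mouse 2) transcription factors. *Socs2* ran from −0.73 to 0.64 (−0.38 without WT mouse 3, −0.73 without LKO mouse 3) and *Nr3c1* from −0.21 to 0.011. *Obp2a* stayed between −10.39 and −7.39 under all alternatives run. Low counts limit *Obp2a* in LKO mice and *Mup4*.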
